A study of Mus musculus with 8 samples.

Results

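The 10 nuclear genes described here act in mitochondrial fusion, fission and mitophagy, and were followed in mouse induced cardiomyocytes. All 10 were found by symbol, each in a single row, among the 53921 rows of the count table that name a gene. By role they were the fusion genes Mfn1, Mfn2 and Opa1, the Opa1-processing protease gene Oma1, the fission genes Dnm1l, Fis1 and Mff, and the mitophagy genes Pink1, Fundc1 and Bnip3l. Induced cardiomyocytes are fibroblasts pushed towards a heart muscle cell state by forced expression of transcription factors. In both groups the cells are labelled Induced cardiomyocytes(Neo) and received MGT, the usual short form for a mix of Gata4, Mef2c and Tbx5. Collection was on day 5. The groups differed in the lentiviral short hairpin RNA: shNT, taken here as the control, or shGrhl3, directed at the Grainyhead-like transcription factor gene Grhl3. Each group had 2 RNA-seq libraries, and the 4 H3K27ac CUT&Tag samples of the series were not analysed here. Whether a group's libraries came from different cultures is not in the labels, so the p-values cover only the variation among these 4 libraries, which may be technical. The hairpin sequence, the number of hairpins and what "Neo" stands for are not in the labels.

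Mitochondria form a network that is joined by fusion and divided by fission. Mitofusins encoded by Mfn1 and Mfn2 join outer membranes, and the dynamin-like GTPase of Opa1 joins inner membranes and shapes cristae. Dnm1l encodes Drp1, a cytosolic dynamin-like GTPase that constricts mitochondria after adaptors such as Mff and Fis1 have brought it to the outer membrane. Mitophagy removes whole mitochondria through autophagy, either through the kinase Pink1 on damaged mitochondria, or through outer membrane receptors such as Fundc1 and Bnip3l (also called Nix) that bind LC3-family proteins directly. Heart muscle depends on these processes because its cells are packed with mitochondria, and turnover of fetal mitochondria accompanies heart maturation. Many of these proteins are regulated by phosphorylation, cleavage or degradation, which mRNA counts do not record.

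Total counts per library ran from 16104243 to 19823397. Replicate libraries differed by more than sampling noise (chi-square per degree of freedom 14.1 for shNT and 8.66 for shGrhl3), so none was treated as a second copy of another. Cardiomyocyte markers were present in every library and 10 of 10 were tested. Of these, 5 were higher in shGrhl3 (Myh6, Myh7, Actc1, Tnni3 and Mybpc3), 1 was lower (Nppa) and 4 did not pass. Actc1 went from 277 ± 15.6 to 545 ± 29.0 CPM (SD, n = 2), Tnnt2 stood at 3105 to 3311 CPM (read counts scaled to library size with TMM factors), and the summed level of the list was 3844 and 3924 CPM in shNT and 4692 and 4565 CPM in shGrhl3. Cardiac fibroblast markers were also present, with sums of 12932 and 13190 CPM in shNT and 13406 and 14088 CPM in shGrhl3. Of 10 tested, 2 were higher (Col1a1 and Lum) and 5 lower (Pdgfra, Tcf21, Dcn, Fstl1 and Thy1). The part of these shifts in the results on the 10 genes was not tested. The leukocyte list moved with the groups: 12 of 13 tested markers were lower in shGrhl3 and 1, Csf1r, was higher, and the list summed to 685 and 941 CPM in shNT against 156 and 125 CPM in shGrhl3. Its C1qa, C1qb and C1qc were too low to test. Its 2 genes with the highest CPM, Lyz2 and Ctss, went from 550 ± 135 to 88.6 ± 18.2 CPM and from 94.7 ± 13.1 to 10.1 ± 1.14 CPM (SD, n = 2). Endothelial sums were 52.1 to 55.7 CPM in shNT and 39.6 to 43.7 CPM in shGrhl3 (0 higher and 2 lower of 8 tested), and smooth muscle sums were 2792 to 2922 and 2492 to 2641 CPM (2 higher and 2 lower of 8). Epithelial sums were 11.7 and 14.0 CPM in shNT and 27.4 and 24.5 CPM in shGrhl3, with 2 of 4 tested markers higher (Krt7 and Krt18), Krt8 and Krt19 not past the threshold, and Epcam, Cdh1, Cldn4 and Grhl2 too low to test. No listed marker was at 0 in all libraries. The background for these marker counts was 17.2% of all genes tested higher and 18.1% lower in shGrhl3. Grhl3 itself had 31 and 14 counts in shNT and 11 and 19 in shGrhl3, which overlap, and no fall of the targeted mRNA was detected (log2 fold change -0.72, SE 0.53, adjusted p = 0.311 in edgeR's quasi-likelihood test). With 1 library left out the Grhl3 value ran from -1.20 (without shGrhl3 replicate 2) to -0.19 (without shNT replicate 1), and it was -1.06 without shNT replicate 2 and -0.33 without shGrhl3 replicate 1. The groups are therefore called by their labels.

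In the shGrhl3 libraries the mitophagy receptor gene Bnip3l fell by 54.7%, the mitophagy kinase gene Pink1 rose by 31.0%, and no fusion or fission gene passed the test. All 10 genes passed the filter on low counts, and 1 rose, 1 fell and 8 did not reach the threshold (adjusted p under 0.05, quasi-likelihood test of edgeR). Across the 15324 genes tested, 35.2% passed, 17.2% as higher and 18.1% as lower in shGrhl3, so 2 of 10 is no result about the 10 genes as a group. The median log2 fold change of the 10 was 0.03, against -0.01 over all genes tested. The CPM values of the groups did not overlap for 7 of the 10 genes, 5 higher and 2 lower in shGrhl3, while 66.5% of all genes tested showed no overlap, 32.8% as higher and 33.7% as lower. Of the 10, 4 had an unadjusted p under 0.05, namely Bnip3l, Pink1, Mff and Mfn1. Such a p was common: Acta2, at an unadjusted p of 0.0496 in edgeR's test, ranked 6702 among the 15324 genes tested. This count is therefore no result about the 10 genes either. In a bulk sample, fewer cells of a type and less RNA per cell cannot be told apart.

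**Figure D1:**
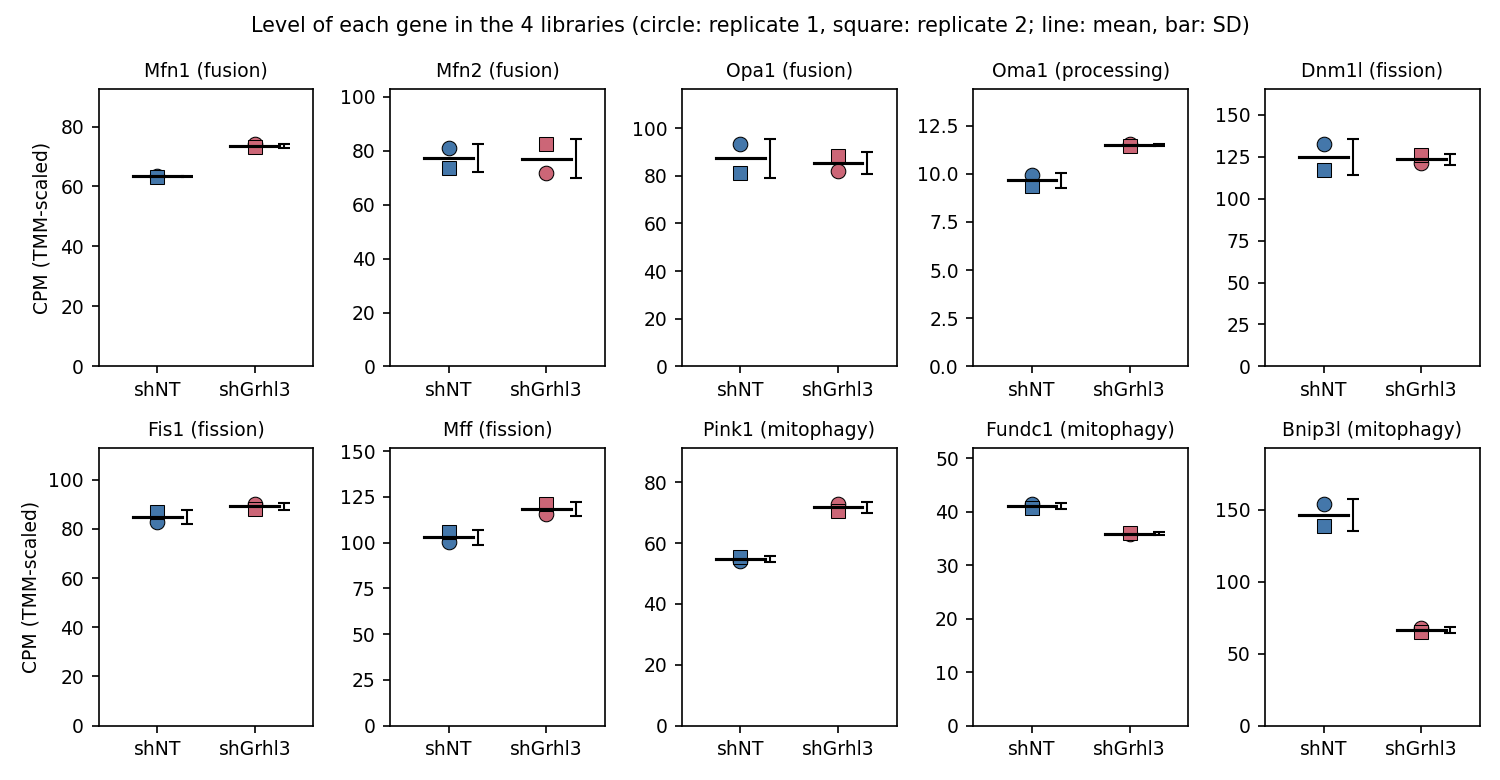
CPM (read counts scaled to library size with TMM factors, axes from 0) of each gene in the 2 shNT and 2 shGrhl3 libraries, with the mean as a line and the SD as a bar. Bnip3l sits at 154 and 138 CPM in shNT and at 67.8 and 64.9 CPM in shGrhl3, Pink1 is higher in both shGrhl3 libraries, and the groups overlap for Mfn2, Opa1 and Dnm1l.

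Bnip3l (chromosome 14, 66985238 to 67008877, mm10) encodes the outer membrane mitophagy receptor Nix, known for clearing mitochondria from maturing red cells and as a target of hypoxia signalling. It stood at 154 and 138 CPM in the shNT libraries and at 67.8 and 64.9 CPM in the shGrhl3 libraries. Both shGrhl3 libraries were far below both shNT libraries, and the gap between groups was several times the spread inside either. The mean fell from 146 ± 11.1 to 66.3 ± 2.05 CPM (SD, n = 2), which is a fall of 54.7% (log2 fold change -1.14, SE 0.09, 95% interval -1.33 to -0.95, adjusted p = 1.52e-09 in edgeR's test). By p-value it ranked 122 among the 15324 genes, of which 5.68% had a log2 fold change of -1 or lower. The call held in all 16 alternative analyses, with log2 fold changes from -1.21 to -1.06. The share of all genes called in those analyses, the background for the 10 genes there, was 27.6% with DESeq2, 34.7% with limma-voom, 35.8% with scaling by library size only and 35.6% with RLE factors. It was 19.1% with no filter on low counts, 42.7% with a stricter one, 35.4% without the robust spread, 35.3% with repeated symbols summed and 35.6% without rRNA-related rows. It was 32.9% with the replicate block, 38.2% with the crossed block, 35.0% with the older method, and 24.0%, 25%, 31.2% and 32.3% without shNT 1, shNT 2, shGrhl3 1 and shGrhl3 2.

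The fall of Bnip3l ran beside the lower leukocyte markers described above, whose part in it was not tested. Among 8057 well expressed genes, the 3 whose centred log2 CPM values lay closest to those of Bnip3l over the 4 libraries were Rbms2 (distance 0.06), Dock4 (0.08) and Usp46 (0.09). Rbms2, an RNA-binding protein gene, went from 119 ± 4.66 to 54.4 ± 2.43 CPM, Dock4, a guanine nucleotide exchange factor gene, from 68.5 ± 8.20 to 30.6 ± 0.144 CPM, and the deubiquitinase gene Usp46 from 69.0 ± 4.98 to 32.4 ± 0.706 CPM (SD, n = 2). Over 4 libraries in 2 groups, the measure rests mainly on the size of the fall.

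Pink1 (chromosome 4, 138313409 to 138326296) encodes the kinase that gathers on depolarised mitochondria and phosphorylates ubiquitin there. Its level was 54.1 and 55.4 CPM in shNT and 72.9 and 70.4 CPM in shGrhl3. Both hairpin libraries were above both controls, with little spread inside either group. The mean rose from 54.7 ± 0.897 to 71.7 ± 1.75 CPM (SD, n = 2), a rise of 31.0% (log2 fold change 0.39, SE 0.10, 95% interval 0.19 to 0.59, adjusted p = 0.00269 in edgeR's test). This call too held in all 16 alternatives, where the log2 fold change ran from 0.37 to 0.43 and the adjusted p reached at most 0.0424. By p-value Pink1 ranked 2775 among the genes tested.

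Fundc1 (chromosome X, 17519967 to 17572329), the hypoxia-linked outer membrane receptor, had 41.5 and 40.7 CPM in shNT and 35.8 and 36.1 CPM in shGrhl3. The groups did not overlap, and the shGrhl3 libraries were the lower. The adjusted p missed the threshold (log2 fold change -0.20, SE 0.11, 95% interval -0.42 to 0.03, adjusted p = 0.165 in edgeR's test). Of the 3 mitophagy genes, then, 1 fell, 1 rose and 1 did not pass.

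The fusion genes showed no call. Mfn1 (chromosome 3, 32529443 to 32579225) had 63.5 and 63.2 CPM in shNT and 74.0 and 73.1 CPM in shGrhl3. Its shGrhl3 libraries were both above its shNT libraries, by 16.1% on the fitted scale, but the adjusted p was 0.0794 in edgeR's test (log2 fold change 0.22, SE 0.09, 95% interval 0.02 to 0.41). Mfn2 (chromosome 4, 147873586 to 147904909), whose product also tethers mitochondria to the endoplasmic reticulum, had 81.1 and 73.7 CPM in shNT and 71.9 and 82.3 CPM in shGrhl3. These values interleave, and the interval of the log2 fold change was -0.21 to 0.20 (adjusted p = 0.961 in edgeR's test). Opa1 (chromosome 16, 29579281 to 29663127) had 93.1 and 81.4 CPM in shNT and 82.0 and 88.4 CPM in shGrhl3, also overlapping (log2 fold change -0.04, 95% interval -0.23 to 0.16, adjusted p = 0.813). The intervals of Mfn2 and Opa1 leave out a change as large as that of Bnip3l in either direction.

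Oma1 (chromosome 4, 103311875 to 103371869) encodes the inner membrane metalloprotease that cleaves Opa1 under stress and so limits fusion. With 149 to 231 counts per library it had the lowest counts of the 10 and the widest interval. Its level was 9.93 and 9.38 CPM in shNT and 11.5 and 11.5 CPM in shGrhl3, with no overlap and the shGrhl3 libraries higher. The difference did not pass (log2 fold change 0.25, SE 0.17, 95% interval -0.10 to 0.60, adjusted p = 0.272 in edgeR's test).

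Among the fission genes, the GTPase gene and its adaptors gave no call either. Dnm1l (chromosome 16, 16312228 to 16359038) had 132 and 117 CPM in shNT and 121 and 126 CPM in shGrhl3, so that both shGrhl3 values lay between the shNT values (log2 fold change -0.02, 95% interval -0.20 to 0.17, adjusted p = 0.916 in edgeR's test). Mff (chromosome 1, 82724890 to 82752390), the main Drp1 receptor, had 100.1 and 105.7 CPM in shNT and 115.6 and 121.3 CPM in shGrhl3. Its shGrhl3 libraries were both higher, and the adjusted p was 0.0785 (log2 fold change 0.20, SE 0.09, 95% interval 0.02 to 0.39). With scaling by library size only, Mff passed (log2 fold change 0.23, adjusted p = 0.0479 in edgeR's test), so its side of the threshold depends on the scaling. Fis1 (chromosome 5, 136953275 to 136966234), a small tail-anchored adaptor, had 82.8 and 87.0 CPM in shNT and 90.3 and 88.3 CPM in shGrhl3, without overlap but with a log2 fold change of 0.07 (95% interval -0.12 to 0.26, adjusted p = 0.576 in edgeR's test).

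**Figure D2:**
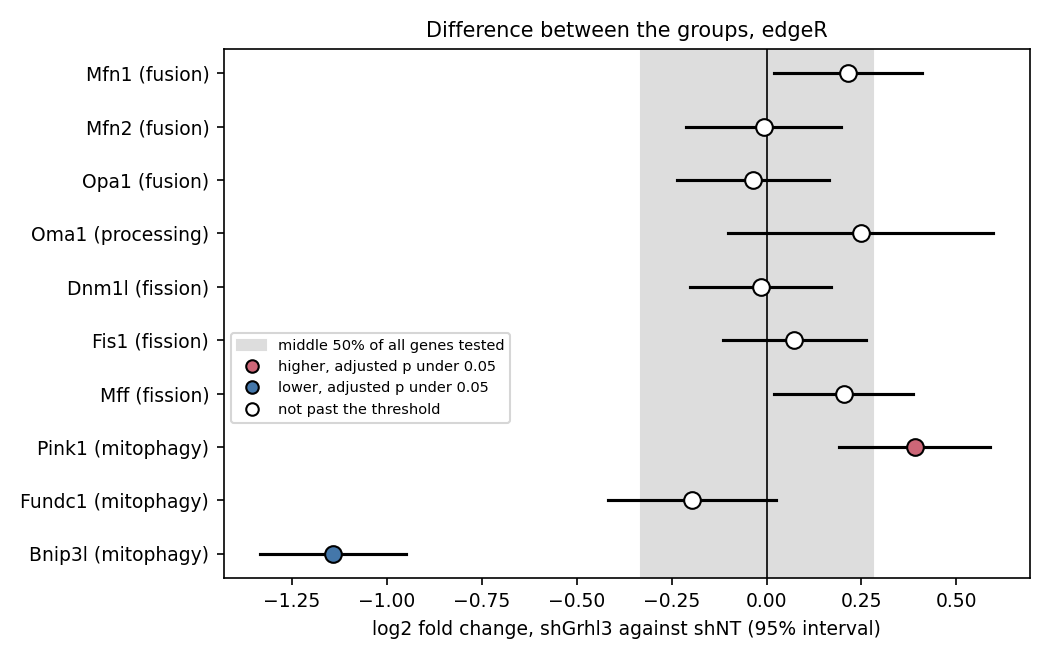
Log2 fold change of shGrhl3 against shNT for each gene (point) with its 95% interval (line) from edgeR, over the middle 50% of all genes tested (grey, -0.33 to 0.28). Bnip3l at -1.14 lies far outside the grey band and Pink1 at 0.39 just outside it, while the other 8 lie inside.

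Ratios of 2 genes inside a library do not depend on how libraries were scaled. The log2 ratio of Bnip3l to its paralog Bnip3, another hypoxia-induced mitophagy receptor, was 2.16 and 2.07 in shNT and 0.85 and 0.76 in shGrhl3, a difference of -1.31. Bnip3 itself was 34.5 and 32.9 CPM in shNT and 37.5 and 38.2 CPM in shGrhl3, and did not pass (log2 fold change 0.17, adjusted p = 0.259 in edgeR's test). The Mfn1 to Mfn2 ratio was -0.35 and -0.22 in shNT and 0.04 and -0.17 in shGrhl3. The other ratios shifted by -0.28 (Opa1 to Oma1), -0.22 (Dnm1l to Mff) and -0.25 (Fundc1 to Fundc2), each with no overlap between groups. The Dnm1l to Mff shift ran from -0.088 without shNT replicate 1 to -0.34 without shNT replicate 2, and the Mfn1 to Mfn2 shift of 0.22 from 0.12 without shGrhl3 replicate 1 to 0.33 without shGrhl3 replicate 2. Every one of the 5 ratios gave an exact two-sided permutation p of 0.333 (adjusted over the 5, also 0.333), which is the smallest that 2 against 2 libraries allow.

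**Figure D3:**
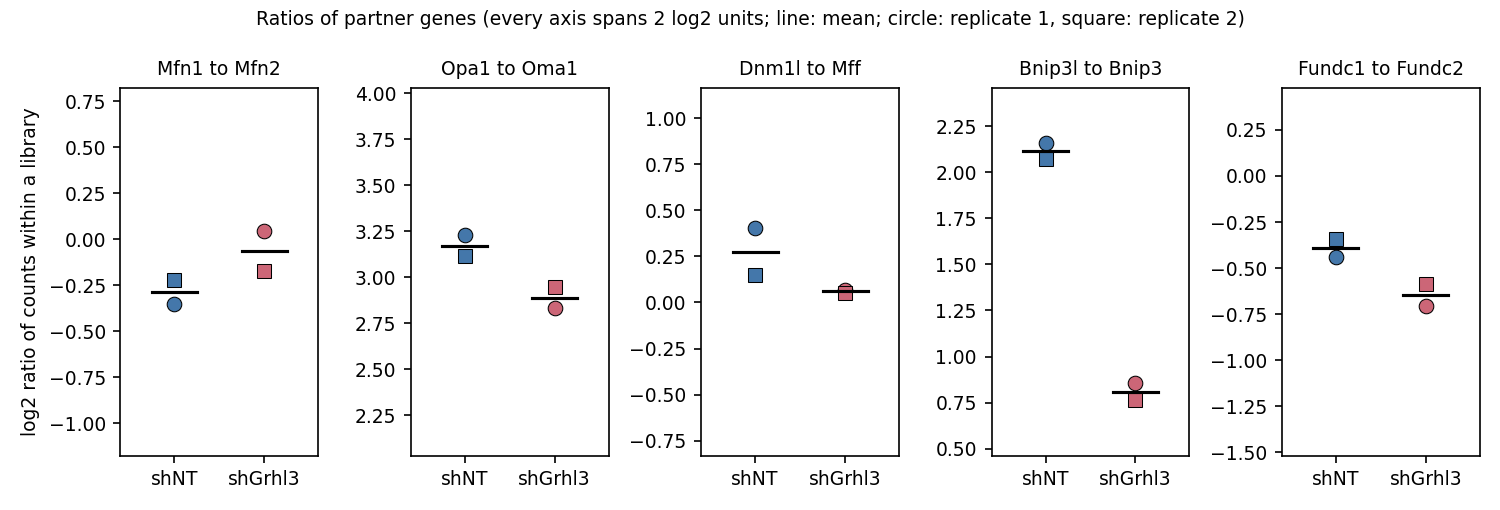
Log2 ratio of the counts of 2 partner genes within each library, shNT against shGrhl3, with the group mean as a line and every axis spanning 2 log2 units. The Bnip3l to Bnip3 ratio drops by 1.31, and the other 4 ratios shift by 0.22 to 0.28 in size.

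Promoter sequence was taken from RefSeq (GRCm38.p6, the assembly behind mm10), as windows from 250 bases before to 50 after an annotated transcript start. There were 14 such windows for 9 of the 10 genes, all but Bnip3l. Both strands were searched for 9 motifs: the Grainyhead-like site AACCGGTT and its core AACCGG, the estrogen-related receptor element TNAAGGTCA, the hypoxia response core ACGTG, the E-box CACGTG (which contains that core), the FOXO site TGTTTAC, the cyclic AMP element TGACGTCA, the NRF1 site and the ETS site CCGGAAGT. The windows printed here are those of Pink1, the gene that rose, and of the mitofusin pair, with matches in capitals. All run 5′ to 3′ on the strand of the gene. Pink1 is at chr4:138326247-138326546 (minus strand), Mfn1 at chr3:32529232-32529531 (plus strand), and the Mfn2 window shown, 1 of 3, at chr4:147904612-147904911 (minus strand).
Pink1: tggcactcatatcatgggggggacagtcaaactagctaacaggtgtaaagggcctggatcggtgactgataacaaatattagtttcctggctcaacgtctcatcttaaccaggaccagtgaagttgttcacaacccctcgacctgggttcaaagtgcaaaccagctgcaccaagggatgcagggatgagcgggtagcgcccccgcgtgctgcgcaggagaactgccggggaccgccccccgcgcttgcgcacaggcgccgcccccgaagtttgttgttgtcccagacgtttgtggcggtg
Mfn1: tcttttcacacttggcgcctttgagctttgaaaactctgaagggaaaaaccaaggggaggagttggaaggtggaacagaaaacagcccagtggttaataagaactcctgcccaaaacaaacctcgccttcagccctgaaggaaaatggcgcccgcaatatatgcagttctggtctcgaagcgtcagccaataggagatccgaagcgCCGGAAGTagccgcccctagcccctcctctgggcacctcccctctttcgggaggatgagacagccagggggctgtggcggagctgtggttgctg
Mfn2: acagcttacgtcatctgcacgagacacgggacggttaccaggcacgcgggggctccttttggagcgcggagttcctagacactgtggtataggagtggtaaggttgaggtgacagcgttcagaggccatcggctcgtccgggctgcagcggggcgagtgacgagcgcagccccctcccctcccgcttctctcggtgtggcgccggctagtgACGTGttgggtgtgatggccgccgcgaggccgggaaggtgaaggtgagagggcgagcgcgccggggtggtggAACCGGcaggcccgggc

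The Pink1 window held no match. The Mfn1 window held the ETS site, which 3.89% of all 32851 windows hold, starting at -44 from the transcript start. The Mfn2 window held the Grainyhead-like core (6.83% of windows) at 34 and the hypoxia core (19.6% of windows) at -39. Besides these, ETS sites lay in both Fis1 windows, an NRF1 site (0.971% of windows) in the Opa1 window, and the same hypoxia core in a second, overlapping Mfn2 window. None of the 14 windows held the full Grainyhead-like site (0.146% of windows), the estrogen-related receptor element (1.28%), the E-box (7.15%), the FOXO site (3.65%) or the cyclic AMP element (1.79%). The windows of Pink1, Mfn1 and Mfn2 had 58.0%, 55.3% and 67.3% G and C, against a median of 52.7% over all windows. A match describes the letters only and shows no binding.

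The wider machinery was described with lists. In 4 lists of fusion and inner membrane, fission, mitophagy and transport genes, 66 genes were tested, 19 rose, 11 fell and 36 did not pass, with a median log2 fold change of 0.13. That is 45.5% called, beside 35.2% of all genes tested. With the stricter filter on low counts, 42.7% of all genes tested were called, and in these lists 20 rose and 11 fell. Fewer of these genes rose without shNT replicate 1, and fewer fell without shNT replicate 2, as over all genes tested.

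Of 22 tested fusion and inner membrane genes, 9 rose, 4 fell and 9 did not pass (median log2 fold change 0.17). The share called was 59.1%, beside 35.2% of all genes tested. The paralogs Afg3l2 and Afg3l1, subunits of the m-AAA protease that acts on inner membrane proteins, rose from 64.4 ± 1.16 to 89.1 ± 4.85 CPM and from 57.6 ± 1.76 to 79.9 ± 4.51 CPM (SD, n = 2). Yme1l1, which encodes the other protease that cleaves Opa1, stood at 201 ± 4.91 and 212 ± 2.85 CPM and did not pass (adjusted p = 0.497 in edgeR's test). Miga1, a mitoguardin that promotes fusion at the outer membrane, fell from 26.8 ± 0.502 to 13.5 ± 0.0536 CPM (adjusted p = 2.82e-06), whereas its paralog Miga2 did not pass (adjusted p = 0.648). Genes of the cristae-organising MICOS complex split: Apool fell from 20.1 ± 3.34 to 11.7 ± 2.16 CPM and Immt, the core subunit, from 137 ± 6.53 to 104 ± 2.74 CPM, while Micos13, Chchd6 and Apoo rose. Chchd3 and Micos10 of the same complex did not pass (adjusted p = 0.0947 and 0.193 in edgeR's test). The other gene that fell was Opa3. The calls of Micos13 and Opa3 were lost without shNT replicate 2 (adjusted p = 0.104 and 0.383 in edgeR's test) and that of Chchd6 without shNT replicate 1 (0.0624). Apoo, the paralog of Apool, went from 3.99 ± 0.929 to 7.86 ± 1.58 CPM. Opa3, Miga2 and the MICOS genes other than Apool were chosen after their values were seen. Without shNT replicate 1 fewer genes of this list rose, as over all genes tested.

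Of 17 tested fission genes, 6 rose, 3 fell and 8 did not pass (median 0.06), so 52.9% were called beside 35.2% of all genes tested. Mtfr1, a fission regulator, rose from 41.2 ± 1.51 to 63.7 ± 2.05 CPM, Pgam5, a mitochondrial phosphatase that dephosphorylates Drp1 and Fundc1, from 47.2 ± 2.19 to 69.2 ± 3.33 CPM, and Akap1, which anchors the kinase that inhibits Drp1, from 66.9 ± 3.35 to 93.9 ± 5.68 CPM (SD, n = 2). Sh3glb1, a membrane-curving endophilin, fell from 305 ± 12.2 to 178 ± 7.34 CPM (adjusted p = 1.16e-07 in edgeR's test). Of the Drp1 receptors beside Mff and Fis1, Mief1 rose from 35.2 ± 3.09 to 45.0 ± 7.22 CPM (adjusted p = 0.0258), a call lost with DESeq2 (adjusted p = 0.0621), without shNT replicate 2 (0.188) and without shGrhl3 replicate 2 (0.255). Mief2 overlapped between groups (12.8 ± 2.72 and 12.6 ± 0.975 CPM, adjusted p = 0.929). Mtfr1l and Inf2, both chosen after their values were seen, were the other genes that fell. Without shNT replicate 2 both lost their calls, and fewer genes fell over all genes tested too. Inf2 also lost its call without shNT replicate 1 or shGrhl3 replicate 1.

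Of 23 tested mitophagy genes, 3 rose, 4 fell and 16 did not pass (median 0.13). The share called was 30.4%, beside 35.2% of all genes tested. Nipsnap2, a matrix protein that marks damaged mitochondria, fell from 43.7 ± 0.950 to 26.0 ± 0.499 CPM. Fbxl4, part of the ubiquitin ligase that degrades Bnip3l and Bnip3, fell from 22.6 ± 2.81 to 13.3 ± 1.85 CPM, and the receptor gene Bcl2l13 rose from 54.95 ± 0.769 to 72.6 ± 0.0886 CPM (SD, n = 2). Usp30, a deubiquitinase of the outer membrane that opposes mitophagy, rose from 32.7 ± 6.24 to 40.7 ± 0.193 CPM (adjusted p = 0.0441), but not with DESeq2 (0.110), without a low-count filter (0.0591), without shNT replicate 1 (0.593) or without shGrhl3 replicate 1 (0.0588). Ulk1, the autophagy-starting kinase that also phosphorylates Fundc1, fell from 52.2 ± 3.92 to 42.9 ± 1.08 CPM (adjusted p = 0.0354). Its call was lost with DESeq2 (0.0933), library size scaling (0.0539), no filter (0.0570), the replicate block (0.0619) and when any of the 4 libraries was left out (0.0502 to 0.328). Gabarapl1 also fell and Usp8 also rose, both chosen after their values were seen, and each lost its call in 6 of the 16 alternatives (Gabarapl1 with adjusted p up to 0.406, Usp8 up to 0.214). With DESeq2 (27.6% of all genes tested called) and with no low-count filter (19.1%) the mitophagy list had 1 gene higher and 2 lower. It also had 2 lower with library size scaling (35.8% of all genes tested called) and with the replicate block (32.9%). Fewer of the list rose without shNT replicate 1, and fewer fell without shNT replicate 2 or shGrhl3 replicate 2, as over all genes tested.

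Of the 4 transport genes, which link mitochondria to microtubule motors, Trak2 rose from 132 ± 6.92 to 177 ± 13.1 CPM (adjusted p = 0.000520 in edgeR's test) and Rhot1, Rhot2 and Trak1 did not pass. A list of 12 general mitochondrial genes, taken as a reference for the organelle as a whole, had 7 higher, 1 lower and 4 that did not pass (median 0.28). The share called was 66.7%, beside 35.2% of all genes tested. Vdac2, an outer membrane channel, rose from 453 ± 10.2 to 670 ± 29.2 CPM and the matrix chaperone gene Hspa9 from 460.4 ± 0.178 to 666 ± 8.13 CPM, while the import channel gene Timm23 fell from 17.3 ± 1.24 to 9.88 ± 0.860 CPM (SD, n = 2). Without shNT replicate 1, and likewise without shNT replicate 2, fewer of this list rose, as over all genes tested. Transcripts of the mitochondrial genome took 2.03% and 2.08% of counts in shNT and 2.40% and 2.42% in shGrhl3, with 6 of 11 tested higher and 0 lower. Over all genes tested, 17.2% were higher and 18.1% lower. The treatment of reads that map to several places is unknown here, so values of paralog pairs and of genes with pseudogene copies carry that uncertainty.

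**Figure D4:**
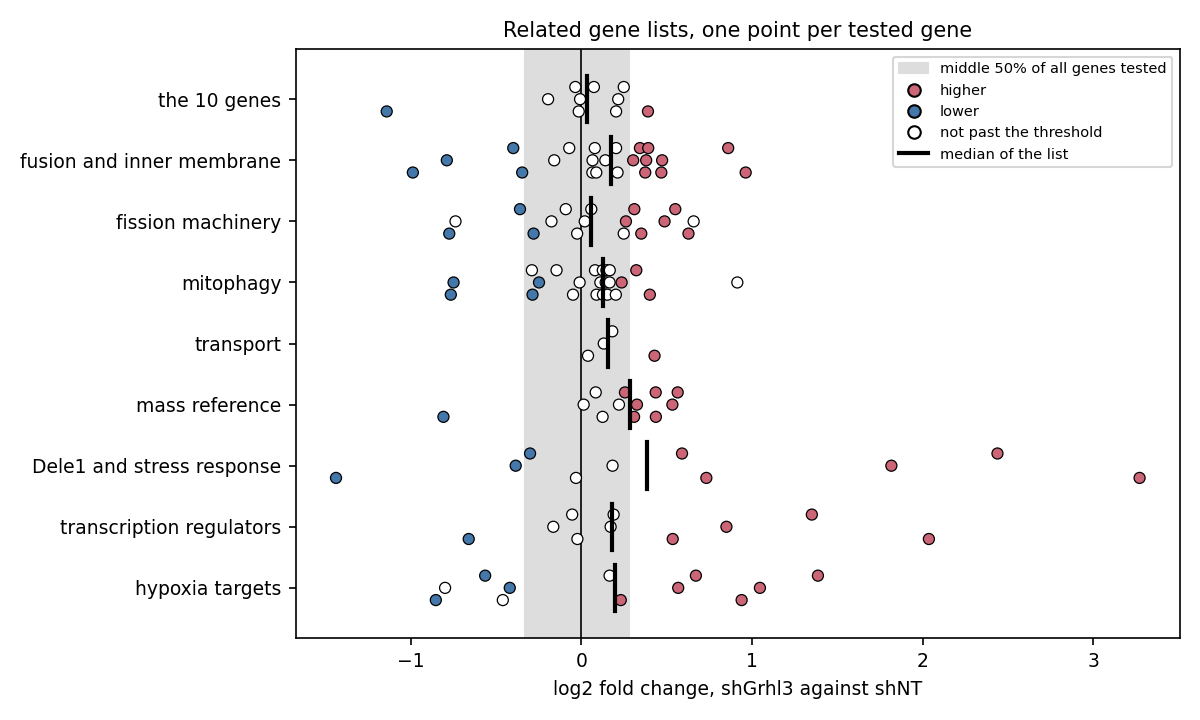
Log2 fold change of every tested gene in the 10-gene group and in 8 related lists, with called genes filled, list medians as bars and the middle 50% of all genes tested in grey. The 10 genes lie mostly inside the band, with Bnip3l alone far to the left, while 7 of the 8 related lists hold called genes on both sides of 0.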

How the data were processed

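RNA-seq gave 2 shNT and 2 shGrhl3 libraries. The authors deposited raw counts per gene. Aligners HISAT2 2.0.1 and Bowtie2 2.2.6, the trimmer cutadapt 1.9.1 and build mm10 are named per the submitters' processing notes, with no step assigned. Nothing used here names the read counter, annotation or strand setting. The columns named shGrhl1 and shGrhl2 were read as replicates of shGrhl3, the only target the labels name. The 1438 rows that name no gene (0.00432% to 0.00872% of counts) were left out.

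Counts were tested with edgeR 4.0.16 in R 4.3.3: filterByExpr (minimum count 10), TMM factors, a robust quasi-likelihood fit of both groups with no covariate, two-sided tests and Benjamini-Hochberg adjustment over all 15324 genes, threshold 0.05. CPM use TMM-scaled library sizes, ± is the SD, and SEs derive from the F statistic. Counting precision rises with depth, so genes with few counts have wide intervals. Alternatives used DESeq2 1.42.0, limma-voom 3.58.1, other scaling and filters, a replicate block and each library left out. CPM are not per length, so levels of different genes were not compared. Exceptions were the 2 markers picked per list by CPM and the cut at mean log2 CPM 4 for well expressed genes.

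The 10 genes and all lists were chosen with earlier results of these data known. Named were the 10 genes, 8 fixed genes (1 is not reported here), up to 4 called genes per list by lowest p, 2 top markers per cell type, and 3 genes closest to the member with the lowest p (mean log2 CPM at least 4).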

Additional observations from a re-analysis of the deposited data

How the results depend on the processing

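Of the alternatives, 14 were planned and 2 were added after seeing the data, the older quasi-likelihood method and the crossed replicate block. Bnip3l and Pink1 kept their direction and call in all 16. Mff passed with library size scaling (log2 fold change 0.23), which made 2 of the 10 genes higher. Uncalled values near 0 changed sign: Mfn2 with library size scaling (0.017) and without the rRNA-related rows (0.0023), and Dnm1l with library size scaling (0.0093). With 1 library left out, log2 fold changes ran from -0.088 to 0.088 for Mfn2, -0.13 to 0.064 for Opa1, -0.099 to 0.074 for Dnm1l, -1.21 to -1.06 for Bnip3l and 0.37 to 0.43 for Pink1. In the same fits Mief2 ran from -0.22 to 0.22, Fundc2 from -0.0016 to 0.13 and Miga2 from -0.015 to 0.15. In these fits the lone library of a group is assumed to vary like the other group. The 4 machinery lists then had 11 to 18 genes higher and 6 to 9 lower, and all genes tested had 1761 to 2630 higher and 2071 to 2559 lower. The 5 partner ratios did not overlap between groups, so leaving out a library could not reverse their direction. With a pseudocount of 1 or 1 library left out, differences ran from 0.12 to 0.33 for Mfn1 to Mfn2. They ran from -0.34 to -0.22 for Opa1 to Oma1 and from -0.34 to -0.088 for Dnm1l to Mff. For Bnip3l to Bnip3 they ran from -1.35 to -1.26, and for Fundc1 to Fundc2 from -0.31 to -0.19. The cause of these shifts was not tested. Counts were low for Oma1 (149 to 231 per library) and Grhl3 (11 to 31), and thinning was not run. Other named genes were low too, such as Ppargc1b (38 to 137 counts per library). Ppargc1a stood at 0.378 to 2.49 CPM and Apoo at 3.34 to 8.98 CPM.

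The labels give no pairing of same-numbered libraries beyond the number. Deviations of same-numbered libraries correlated at -0.06 over all genes tested and -0.17 over well expressed genes. With the replicate block, 2436 genes rose and 2607 fell, and Bnip3l (-1.14) and Pink1 (0.39) kept their calls. With the crossed replicate block 2882 rose and 2966 fell, and 3 of the 10 genes rose, Mfn1 (0.22) and Mff (0.20) beside Pink1.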

Other observations

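Other fixed lists cover known inputs of these genes. Of 10 transcription regulators, 4 rose, 1 fell and 5 did not pass (median log2 fold change 0.18), so 50% were called beside 35.2% of all genes tested. The risers were the PGC-1 coactivator genes Ppargc1a (0.529 ± 0.213 to 2.24 ± 0.363 CPM) and Ppargc1b (2.66 ± 0.377 to 6.86 ± 0.672 CPM) and their partners Esrra (35.6 ± 1.17 to 51.6 ± 4.87 CPM) and Esrrg (6.41 ± 0.197 to 11.5 ± 0.0296 CPM; SD, n = 2). Ppargc1a was chosen after its values were seen, and its shNT libraries held only 0.679 and 0.378 CPM. These factors are known to drive mitochondrial gene programs, Mfn2 among them. Mfn2 gave no call, and a link between these factors and the 10 genes was not tested. Epas1, which encodes the hypoxia factor HIF-2 alpha, fell from 138 ± 14.3 to 87.3 ± 9.99 CPM, and Hif1a did not pass (adjusted p = 0.0742 in edgeR's test) and was chosen after its values were seen. It passed with library size scaling (0.0470), the crossed replicate block (0.0292) and without shGrhl3 replicate 1 (0.0177).

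Of 12 hypoxia targets, 6 rose, 3 fell and 3 did not pass, Bnip3 among the last (median 0.20). The share called was 75%, beside 35.2% of all genes tested. Slc2a1, the glucose transporter gene, rose from 93.8 ± 3.09 to 245 ± 20.9 CPM, Vegfa from 183 ± 13.3 to 351 ± 7.01 CPM and P4ha1 from 440.3 ± 3.95 to 701 ± 23.4 CPM, whereas Ndrg1 fell from 101 ± 1.45 to 56.0 ± 8.52 CPM (SD, n = 2). Bnip3l, also a known hypoxia target, fell like Ndrg1 and unlike the 6 that rose. A part of hypoxia signalling in its fall was not tested. The other genes of the list that fell were Egln3 and Adm, chosen after their values were seen, and the call of Adm was lost without shNT replicate 2 (adjusted p = 0.175 in edgeR's test).

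Of 10 genes of the Dele1 pathway and the integrated stress response, through which Oma1 reports mitochondrial stress, 5 rose, 3 fell and 2 did not pass (median 0.39). The share called was 80%, beside 35.2% of all genes tested. Trib3 rose from 6.33 ± 2.36 to 34.9 ± 0.543 CPM, Chac1 from 10.3 ± 0.105 to 36.3 ± 0.613 CPM and Ddit3 from 54.2 ± 0.0585 to 90.0 ± 6.49 CPM, while Asns fell from 93.1 ± 7.47 to 34.4 ± 1.20 CPM. Dele1, the direct Oma1 substrate, fell from 24.0 ± 1.70 to 18.3 ± 1.76 CPM (SD, n = 2; adjusted p = 0.0269 in edgeR's test), and was chosen after its values were seen. Its call was lost with DESeq2 (adjusted p = 0.0888), without shNT replicate 2 (0.190) and without shGrhl3 replicate 1 (0.176). With DESeq2, where 27.6% of all genes tested were called, 1 gene of this list fell. Without shNT replicate 2 fewer of the list fell too, as over all genes tested.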
